A study of Mus musculus with 12 samples.

Results

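The imprinted growth genes *H19*, *Igf2*, *Igf2os*, *Dlk1*, *Meg3*, *Mest*, *Peg3*, *Cdkn1c*, *Grb10* and *Plagl1* were followed in whole lungs of neonatal mice. They were taken by symbol from the count table, in which all 10 were found among 52550 genes, and all 10 passed the filter on low counts. The set was selected on the counts of *H19* and *Igf2os*, which were higher after lipopolysaccharide (LPS) in wild-type (WT) mice alone, so the values of these 2 genes are given as a description, with no test. The other 8 were tested in every comparison.

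The libraries came from 12 lungs of C57Bl/6J mice on postnatal day 5, with 3 libraries in each of 4 groups. WT (*Adm*+/+) and *Adm*+/- mice, which are germline heterozygotes for adrenomedullin, a vasoactive peptide hormone, were injected intraperitoneally with Escherichia coli O55:B5 LPS at 6 mg/kg or with phosphate-buffered saline (PBS). All mice had 3 daily injections from postnatal day 3, and tissue was collected 6 h later than the final one. The *Adm*+/- line was made on a 129/SvEv background and backcrossed to C57BL/6J, and *Adm* lies on chromosome 7, as do 5 of the members, 31.9 Mb from *H19* (mm10, start to start). Whether sequence of the first strain was still present near these genes was not tested. The parent that passed on the null allele is not given in the sources used here.

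Imprinted genes are expressed mainly from the copy inherited from a given parent, a choice set by DNA methylation in the germ line and held at control regions that often govern several neighbouring genes. Many act on growth before and after birth. Their levels in most organs, lung and skeletal muscle included, are high in the fetus and decline as postnatal growth slows. Paternally expressed members of the set include *Igf2*, *Dlk1*, *Mest*, *Peg3* and *Plagl1*, and maternally expressed members include *H19*, *Meg3*, *Cdkn1c* and, outside neurons, *Grb10*. The counts do not separate the parental copies, so nothing here measures imprinting itself.

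The *H19* transcript carries a microRNA in an exon, miR-675, and the mature arms are shown because they are the known processed product of the member that the set was built around. From RefSeq (GRCm38.p6), miR-675-5p lies at chr7:142577112-142577133 and miR-675-3p at chr7:142577078-142577099, both on the minus strand. Capitals mark the seed, bases 2 to 8, and the 2 seeds differ.
miR-675-5p: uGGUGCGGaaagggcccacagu
miR-675-3p: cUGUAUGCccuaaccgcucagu
The libraries do not measure mature microRNAs, and the *Mir675* row of the count table held 0 counts in every library. *Mir675* shares 84 exon bases with *H19* on the same strand. How the counting treated reads over both genes is not given, so these 0 counts do not measure its level.

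*Peg3* and its neighbour *Usp29* start back to back on opposite strands, and the stretch between their annotated starts is shown because both genes rose after LPS in both genotypes. It spans the 146 bases at chr7:6730432-6730577 (GRCm38.p6), is written on the minus strand in the direction of *Peg3*, and has its 5 CG dinucleotides in capitals.
*Peg3*-*Usp29* stretch: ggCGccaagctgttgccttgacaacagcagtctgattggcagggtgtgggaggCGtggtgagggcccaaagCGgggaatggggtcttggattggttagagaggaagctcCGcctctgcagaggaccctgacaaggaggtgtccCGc
At the same offsets, 44.4% of the 32851 promoter windows of the RefSeq set held at least 5 CG dinucleotides, so this number is near the middle. Of the members, 7 had windows in that set, 14 windows in all. The E-box CAGCTG, a palindrome and a core sequence of the sites of muscle and other basic helix-loop-helix factors, was present in the 250 bases before the start in 1 of the 14, a *Mest* window, and in 13% of all windows.

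Total counts ranged from 22.4 M to 38.1 M per library. WT PBS replicate 5 and *Adm*+/- PBS replicate 6 stood apart, with 16.6% and 13.3% of their counts on the non-coding gene *Gm26917* against 5.42% to 7.40% elsewhere. Lung epithelial markers were present in all libraries, with a summed level between 11356 and 15022 CPM (counts scaled to a common library size) led by *Sftpc*, *Sftpb* and *Scgb1a1*. In these bulk libraries a larger share of cells of a type and more RNA per cell cannot be told apart. The targeted gene *Adm* had 3.32, 5.98 and 4.11 CPM in WT PBS and 3.96, 2.42 and 3.03 CPM in *Adm*+/- PBS, and its log2 difference of −0.52 (standard error 0.31) did not pass the test (edgeR adjusted p = 1).

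The WT LPS libraries also held transcripts of tissues other than lung. The summed level of 24 skeletal muscle genes was 2132, 2356 and 971 CPM in WT LPS replicates 9, 10 and 11, against 38.9 to 62.0 CPM in WT PBS, 37.9 to 49.1 CPM in *Adm*+/- PBS and 51.0 to 75.1 CPM in *Adm*+/- LPS. *Acta1*, the actin of skeletal muscle fibres, had 499, 445 and 156 CPM in WT LPS and at most 8.62 CPM in any other library. Of 22 skeletal muscle genes tested, 21 were called higher after LPS in WT mice and 1, *Acta1*, in *Adm*+/- mice. The summed level of 20 squamous epithelium genes was 2844, 30.1 and 1444 CPM in the same WT LPS libraries, against 1.97 to 8.60 CPM in WT PBS, 2.20 to 3.09 CPM in *Adm*+/- PBS and 6.79 to 40.5 CPM in *Adm*+/- LPS, so it did not share its order with muscle. The part of these transcripts in the results was not tested.

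*H19* is a maternally expressed long non-coding RNA that starts 88.7 kb from *Igf2* on chromosome 7 (142575529 to 142578143, minus strand, mm10). In WT PBS it had 144, 122 and 240 CPM, and in WT LPS 745, 397 and 394 CPM. In *Adm*+/- mice it had 137, 124 and 131 CPM in PBS and 124, 117 and 105 CPM in LPS. All 3 WT LPS libraries lay above all 9 others, and WT LPS replicate 9 was the highest. The log2 difference between LPS and PBS was 1.60 in WT mice and −0.18 in *Adm*+/- mice, and without WT LPS replicate 9 the WT value was 1.23. Without both libraries that stood apart the WT value was 1.94 for *H19*, 1.99 for *Igf2* and 2.23 for *Igf2os*.

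*Igf2* encodes insulin-like growth factor 2, the main fetal growth factor of the family, and is paternally expressed (142650766 to 142666816, minus strand). It had 101, 69.8 and 146 CPM in WT PBS and 406, 328 and 287 CPM in WT LPS. The *Adm*+/- mice had 76.3, 82.3 and 76.9 CPM after PBS and 81.4, 87.2 and 96.4 CPM after LPS. Every WT LPS library exceeded every other library, while the *Adm*+/- groups overlapped. *Igf2* rose 3.23-fold after LPS in WT mice (log2 fold change 1.69, standard error 0.22, edgeR adjusted p = 0.000586) and was not called in *Adm*+/- mice, where the value was 0.17 (standard error 0.21, edgeR adjusted p = 0.609).

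*Igf2os* is a non-coding transcript of unassigned function on the opposite strand of *Igf2* (142659693 to 142670356, plus strand), with 98 exon bases shared between them. It was the least abundant member, with 0.944, 0.901 and 1.55 CPM in WT PBS and 2.30, 5.09 and 5.76 CPM in WT LPS. The *Adm*+/- libraries had 0.955, 0.939 and 0.900 CPM in PBS and 0.440, 0.494 and 0.387 CPM in LPS. These levels rest on 13 to 171 counts a library. The WT LPS libraries were above all others and the *Adm*+/- LPS libraries below all others, with log2 differences between LPS and PBS of 1.97 in WT mice and −1.08 in *Adm*+/- mice. The strand option of the counting is not given in the sources used here, so reads in the shared bases cannot be assigned to either gene with certainty.

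*H19* and *Igf2* kept a narrow ratio of counts over the libraries, from 1.09 to 1.84 *H19* counts per *Igf2* count, and the groups overlapped. *Igf2* counts per *Igf2os* count moved more. They were 77.4 to 107 in the PBS libraries of both genotypes and 177 to 249 in *Adm*+/- LPS. In WT LPS replicates 9, 10 and 11 they were 176, 64.5 and 49.8, since replicate 9 had the highest *Igf2* level of the 3 libraries and the lowest *Igf2os* level.

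**Figure D1:**
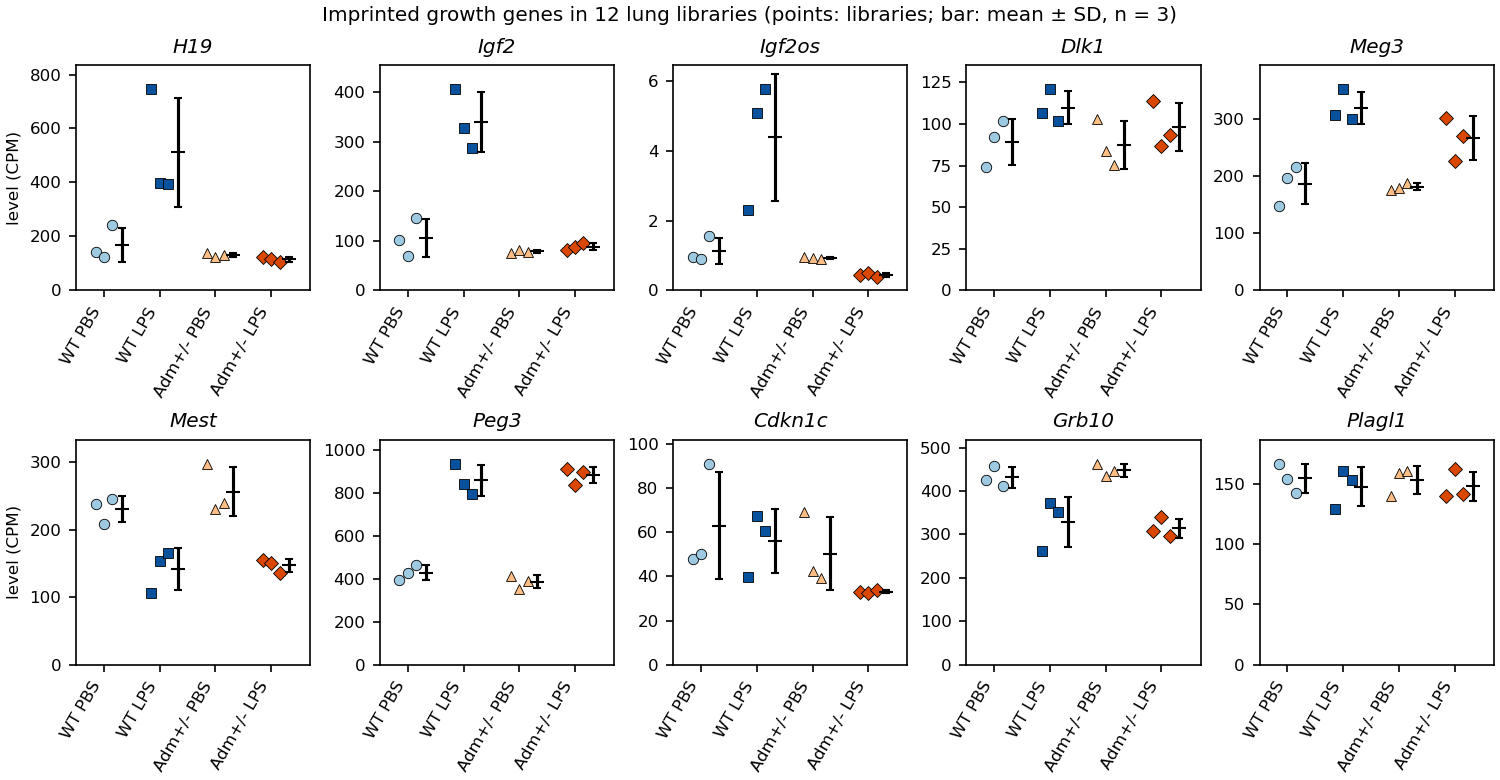
Levels of the 10 members (CPM, y axes from 0) in each library of the 4 groups, with the mean and SD (n = 3) drawn beside the points. *H19*, *Igf2* and *Igf2os* are high in WT LPS alone, *Peg3* is high in both LPS groups, and *Plagl1* lies between 129 and 167 CPM throughout.

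*Dlk1* and *Meg3* are neighbours on chromosome 12 with opposite parental expression. *Dlk1*, a transmembrane inhibitor of differentiation in fat, muscle and other precursors (109452823 to 109463336, plus strand), had 74.2, 92.0 and 102 CPM in WT PBS and 107, 121 and 102 CPM in WT LPS. It had 103, 83.6 and 75.5 CPM in *Adm*+/- PBS and 114, 86.5 and 93.2 CPM in *Adm*+/- LPS. The WT groups were separated by a small margin, the *Adm*+/- groups overlapped, and neither value passed the test (log2 fold change 0.30, edgeR adjusted p = 0.212, and 0.16, edgeR adjusted p = 0.482).

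*Meg3*, a maternally expressed long non-coding RNA (109541001 to 109571726, plus strand), had 147, 197 and 216 CPM in WT PBS and 307, 352 and 301 CPM in WT LPS. The *Adm*+/- libraries had 176, 180 and 189 CPM in PBS and 303, 227 and 270 CPM in LPS. No LPS library overlapped with the PBS libraries of its genotype. *Meg3* rose in WT mice (log2 fold change 0.78, standard error 0.15, edgeR adjusted p = 0.00525) and in *Adm*+/- mice (0.56, standard error 0.15, edgeR adjusted p = 0.0170). The *Adm*+/- call did not hold in 4 of the 12 refits with a library removed, those without *Adm*+/- PBS replicate 6 or 7 or *Adm*+/- LPS replicate 1 or 12, with adjusted p up to 0.0801, nor with the muscle level as a covariate (0.47). *Meg3* counts per *Dlk1* count were 1.98 to 2.14 in WT PBS and 2.87 to 2.95 in WT LPS, and 1.71 to 2.50 in *Adm*+/- PBS and 2.63 to 2.90 in *Adm*+/- LPS, so the ratio was higher after LPS in each genotype with no overlap.

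*Peg3*, a paternally expressed zinc finger protein that acts in growth and in the survival of stressed cells (chromosome 7, 6703892 to 6730431, minus strand), gave the largest tested change in *Adm*+/- mice and the smallest p-value of the members in both genotypes. It had 393, 428 and 465 CPM in WT PBS and 939, 845 and 798 CPM in WT LPS. The *Adm*+/- libraries had 415, 354 and 392 CPM in PBS and 912, 841 and 900 CPM in LPS. The LPS libraries were all above the PBS libraries, and the genotypes had much the same range within each treatment. *Peg3* rose 2.01-fold in WT mice (log2 fold change 1.004, standard error 0.11, edgeR adjusted p = 0.000226) and 2.29-fold in *Adm*+/- mice (1.19, standard error 0.11, edgeR adjusted p = 4.87e-05). The summed level of 10 neutrophil and macrophage genes also moved with treatment in both genotypes, from 869 to 995 CPM in WT PBS to 2011 to 3071 CPM in WT LPS and from 780 to 1018 CPM in *Adm*+/- PBS to 2049 to 2532 CPM in *Adm*+/- LPS. Its part in the *Peg3* change was not tested.

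*Mest*, a paternally expressed hydrolase-like protein of mesoderm (chromosome 6, 30723547 to 30748465, plus strand), moved the opposite way. It had 237, 208 and 245 CPM in WT PBS and 106, 154 and 165 CPM in WT LPS, and 298, 231 and 240 CPM in *Adm*+/- PBS and 155, 150 and 136 CPM in *Adm*+/- LPS. The LPS libraries lay below the PBS libraries in each genotype. In WT mice *Mest* fell by 0.70 (log2, standard error 0.16, edgeR adjusted p = 0.0131) and in *Adm*+/- mice it fell by 0.80 (standard error 0.16, edgeR adjusted p = 0.00381). With only the WT libraries in the fit, the WT call was lost (edgeR adjusted p = 0.0728). The summed level of 12 lung fibroblast genes was also lower after LPS with no overlap, at 20774 to 48174 CPM in WT PBS and 14330 to 18613 CPM in WT LPS, and 21060 to 33153 CPM in *Adm*+/- PBS and 15390 to 16928 CPM in *Adm*+/- LPS. Of these 12 genes 2 were called lower and 1 higher in WT mice, and 4 lower and 1 higher in *Adm*+/- mice. Of all genes, 5.46% and 10.5% were called lower. In the mean log2 CPM of the list the WT groups overlapped, with 8.63 in WT LPS replicate 11 and 8.60 in WT PBS replicates 3 and 4. The part of this list in the *Mest* change was not tested.

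Of the growth inhibitors *Grb10* and *Cdkn1c*, *Grb10* was called lower after LPS in *Adm*+/- mice and *Cdkn1c* was called in neither genotype in the main fit. *Grb10*, an adaptor that dampens insulin and insulin-like growth factor receptor signalling (chromosome 11, 11930508 to 12038683, minus strand), had 426, 458 and 411 CPM in WT PBS and 262, 372 and 352 CPM in WT LPS. It had 463, 434 and 445 CPM in *Adm*+/- PBS and 307, 339 and 296 CPM in *Adm*+/- LPS. Both genotypes had their LPS libraries below their PBS libraries. In *Adm*+/- mice *Grb10* fell by 0.51 on the log2 scale (standard error 0.13, edgeR adjusted p = 0.0127), while the WT value of −0.39 was not called (standard error 0.13, edgeR adjusted p = 0.0590). The *Adm*+/- call sits at the fold limit of 0.5 and was lost with RLE size factors (−0.4993, edgeR adjusted p = 0.0148), with DESeq2, with protein-coding genes alone, with the muscle level as a covariate (−0.45) and without both libraries that stood apart (−0.48). It was also lost in 3 of the 12 refits with a library removed, those without *Adm*+/- PBS replicate 6 or *Adm*+/- LPS replicate 1 or 12, with adjusted p up to 0.0596.

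*Cdkn1c*, a cyclin-dependent kinase inhibitor of the same distal chromosome 7 region as *H19* (143458339 to 143461050, minus strand), had 47.9, 50.1 and 91.3 CPM in WT PBS and 39.9, 67.7 and 60.6 CPM in WT LPS. It had 69.5, 42.3 and 39.3 CPM in *Adm*+/- PBS and 33, 32.4 and 34 CPM in *Adm*+/- LPS. The highest value of each PBS group came from the library that stood apart. Neither LPS response passed the test (log2 fold change −0.17, edgeR adjusted p = 0.714 in WT mice, and −0.60, edgeR adjusted p = 0.140 in *Adm*+/- mice). Without both libraries that stood apart the WT value turned to 0.19 and the *Adm*+/- value was −0.29 (edgeR adjusted p = 0.241), and it was −0.30 without *Adm*+/- PBS replicate 6 alone. The *Adm*+/- value was called with only the *Adm*+/- libraries in the fit (−0.60, edgeR adjusted p = 0.0384) and without WT PBS replicate 5 (−0.61, edgeR adjusted p = 0.0493).

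*Plagl1*, a paternally expressed zinc finger transcription factor that in other systems regulates imprinted genes (chromosome 10, 13060504 to 13131694, plus strand), had 129 to 167 CPM over the 12 libraries. Its groups overlapped in each genotype. The log2 fold change was −0.07 in WT mice (95% interval −0.33 to 0.20) and −0.05 in *Adm*+/- mice (−0.32 to 0.21), with edgeR adjusted p = 0.739 and 0.783.

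In WT mice 3 of the 8 tested members were called higher (*Igf2*, *Meg3* and *Peg3*) and 1 lower (*Mest*), where 7.7% of the 23051 genes tested were called higher and 5.46% lower. In *Adm*+/- mice 2 were called higher (*Meg3* and *Peg3*) and 2 lower (*Mest* and *Grb10*), against 11% and 10.5% of all genes. The groups did not overlap for 4 members higher and 2 lower in WT mice (15.8% and 15.6% of all genes) and for 2 higher and 3 lower in *Adm*+/- mice (23.8% and 24%). The median log2 fold change of the 8 was 0.12 in WT mice and 0.06 in *Adm*+/- mice, and that of all genes 0.01 and −0.01. *Igf2* lies beside *H19* and *Igf2os*, on which the set was selected, and followed *H19* over the libraries (r = 0.97). Its WT call is therefore not independent of that selection.

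**Figure D2:**
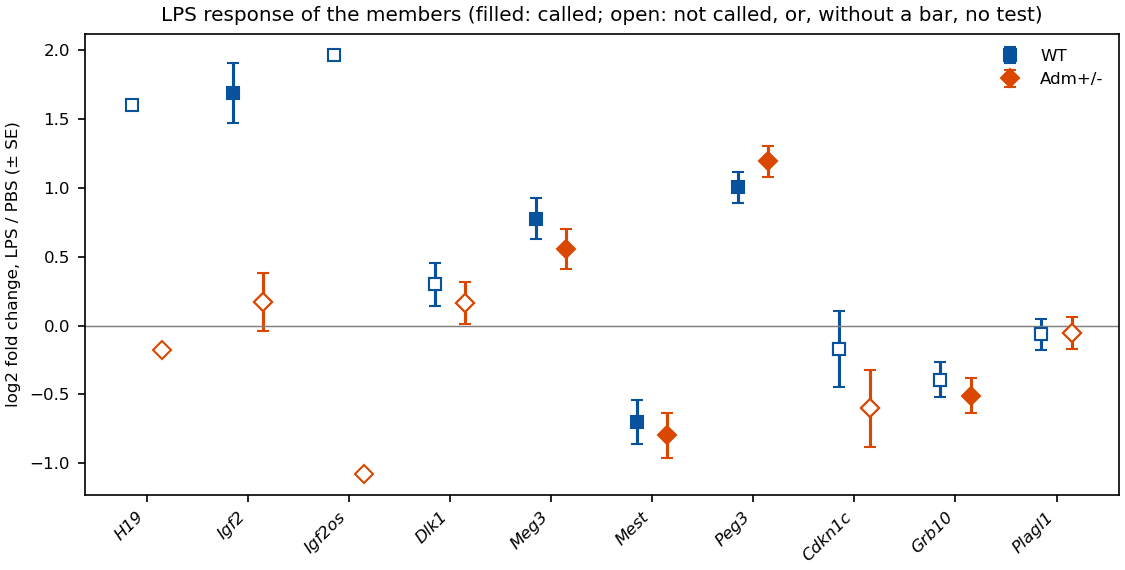
Log2 fold change between LPS and PBS of each member in WT (squares) and *Adm*+/- (diamonds) mice, with the standard error from the edgeR fit. Filled points were called, open points with bars were not, and the open points without bars are *H19* and *Igf2os*, which had no test. *Meg3*, *Mest* and *Peg3* are called in both genotypes, *Igf2* in WT and *Grb10* in *Adm*+/- mice.

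A genotype difference in the LPS response was called for 0 of the 8 tested members, against 0.0824% of all genes (19 of 23051). It was largest for *Igf2*, at −1.52 on the log2 scale (95% interval −2.22 to −0.82, edgeR adjusted p = 0.133 over all genes). The *Igf2* difference was called with DESeq2 (adjusted p = 0.00244), with no filter on low counts (edgeR adjusted p = 0.0177) and without both libraries that stood apart (−1.83, edgeR adjusted p = 0.0292), and also without WT PBS replicate 5 alone (−1.83, edgeR adjusted p = 0.00750). RLE size factors, limma-voom and the fit of protein-coding genes did not call it. For *H19* and *Igf2os* the described differences were −1.78 and −3.05. With the muscle level as a covariate the differences were −0.05 for *Igf2*, −0.21 for *H19* and −3.74 for *Igf2os*. For *Peg3*, *Meg3* and *Mest* the intervals were −0.17 to 0.55, −0.70 to 0.26 and −0.62 to 0.42.

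Between genotypes in PBS, 0 of the 8 tested members were called, as were 0% of all genes with edgeR, DESeq2 or limma-voom, while 611 genes had an unadjusted edgeR p below 0.05. For *H19* and *Igf2os* the described differences in PBS were −0.37 and −0.26, and without WT PBS replicate 5 they were −0.020 and 0.014. Without both libraries that stood apart they were −0.060 and −0.0073. In LPS, 1 of 8 was called against 1.33% of all genes. This was *Igf2*, 3.85-fold lower in *Adm*+/- mice (log2 fold change −1.95, standard error 0.22, edgeR adjusted p = 0.000774), and *H19* and *Igf2os* had differences of −2.15 and −3.30 as a description. The *Igf2* call is again not independent of the selection. Of 22 skeletal muscle genes tested, 20 were called lower in the same comparison. With the muscle level as a covariate, which cannot be told apart from WT LPS, the values were −0.35 for *Igf2*, −0.45 for *H19* and −4.04 for *Igf2os*. The part of the muscle signal was not tested. The *Cdkn1c* groups also did not overlap in LPS, with a value of −0.76 that was not called (edgeR adjusted p = 0.271) but was called without both libraries that stood apart (−0.75, edgeR adjusted p = 0.0356). These comparisons share their LPS and PBS libraries with the LPS responses above.

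Over the 12 libraries, log2 CPM of *Igf2* and *H19* followed the mean of the skeletal muscle list (Pearson r = 0.96 and 0.92), and *Igf2os* did so less closely (0.81). With *Acta1* alone, r was 0.94, 0.87 and 0.71. The WT LPS libraries carried most of this. Over the other 9 libraries r with the muscle list was 0.55 for *Igf2*, 0.19 for *H19* and −0.35 for *Igf2os*. For deviations of the 12 libraries from their group means it was 0.59, 0.46 and −0.18. The squamous epithelium list gave 0.82 for *Igf2* and 0.83 for *H19* over all 12, and for deviations 0.18 and 0.55. Outside WT LPS other lists ran closer to these genes than muscle did. Between *Igf2* and the brown fat list r was 0.89 there, 0.79 for deviations and 0.37 over all 12. Between *H19* and the lung fibroblast list it was 0.87 there, 0.42 for deviations and −0.01 over all 12. WT PBS replicate 5, which stood apart, was the highest of these 9 libraries in *H19*, in *Igf2* and in both lists, with 38.6 CPM of brown fat genes against at most 8.39 CPM in the other 8. A list of 9 muscle precursor genes gave 0.85 for *Igf2os*, 0.88 for *Igf2* and 0.81 for *H19* over all 12. For the same genes it gave −0.67, −0.32 and −0.53 outside WT LPS, and 0.64, −0.45 and −0.69 for deviations. All values of r here are descriptions over few libraries that share their depth and scaling.

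Within WT LPS, *Acta1* ran in the same order as *H19*, *Igf2* and *Peg3*, highest in replicate 9 and lowest in replicate 11. The summed muscle level was highest in replicate 10, and *Igf2os* was highest in replicate 11, which had the lowest muscle level. *Myog*, a regulator of muscle precursors, had 2.28, 10.03 and 8.66 CPM in replicates 9, 10 and 11 and at most 0.29 CPM elsewhere, and was lowest in the library with the lowest *Igf2os*. Of 9 muscle precursor genes, 8 were called higher after LPS in WT mice, and in *Adm*+/- mice 1 was called higher and 1 lower. *Megf10*, the most abundant gene of this list, went the other way. It had 22.4, 23.1 and 22.8 CPM in WT PBS and 12.01, 18.6 and 17.2 CPM in WT LPS. In *Adm*+/- mice it had 20.3 to 30.8 CPM in PBS and 11.5 to 15.3 CPM in LPS. The list summed to 24.6, 59.99 and 45.9 CPM in WT LPS and 23.3 to 25.3 CPM in WT PBS, with overlap.

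With the mean of the muscle list as a covariate, the WT log2 fold change was 0.02 for *Igf2*, −0.19 for *H19*, 2.76 for *Igf2os*, 0.07 for *Meg3* and 0.66 for *Peg3*. The covariate separates WT LPS from all other libraries, so that it and the WT response cannot be told apart, and in this fit 0 of 23051 genes were called in WT mice. *Peg3* and *Mest* remained called in *Adm*+/- mice in the same fit, at 1.15 and −0.73, while the *Adm*+/- calls of *Meg3* (0.47, edgeR adjusted p = 0.0807) and *Grb10* (−0.45, edgeR adjusted p = 0.0592) were lost.

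**Figure D3:**
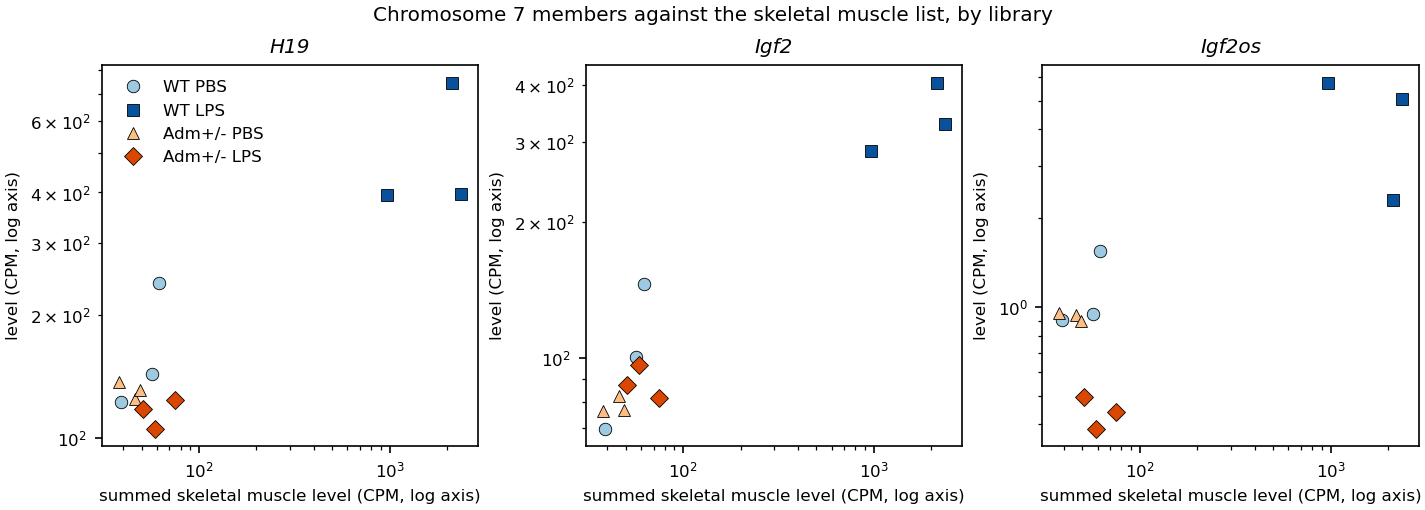
Level of *H19*, *Igf2* and *Igf2os* (CPM, log axis) against the summed level of 24 skeletal muscle genes (CPM, log axis) in each library. The WT LPS squares lie apart at 971 to 2356 CPM of muscle genes, the other 9 libraries lie between 37.9 and 75.1 CPM, and *Igf2os* is highest in the WT LPS library with the least muscle signal.

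For *Meg3*, r with the muscle list was 0.77 over 12 libraries, 0.61 over the 9 that are not WT LPS and 0.39 for deviations from group means, and with *Acta1* 0.85, 0.76 and 0.45. For *Peg3* it was 0.62, 0.58 and 0.34 with the list, and 0.74, 0.76 and 0.33 with *Acta1*. The squamous epithelium list gave 0.68, 0.80 and −0.20 for *Meg3* and 0.66, 0.86 and 0.25 for *Peg3*, so over the 9 libraries it ran closer to both than the muscle list did. *Cdkn1c* followed the lung fibroblast list (r = 0.81 over 12 libraries, 0.97 over the 9 that are not WT LPS and 0.87 for deviations from group means), and WT PBS replicate 5, high in *Cdkn1c*, had the highest summed fibroblast level, 48174 CPM. With the smooth muscle and pericyte list *Cdkn1c* had 0.84, 0.90 and 0.76. *Mest* followed that list too (0.74, 0.89 and 0.80). *Igf2os* followed it outside WT LPS (0.96), with 0.46 over all 12.

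The tested genes most like each member by Pearson r of log2 CPM over the 12 libraries were as follows. For *H19* they were *Hoxc4* (0.97), *Igf2* (0.97), *Actn3* (0.96), *Klhl40* (0.95) and *Eno3* (0.95), of which *Actn3* and *Eno3* encode an actinin and an enolase of muscle fibres. For *Igf2* they were *Eno3*, *Ryr1*, the calcium release channel of muscle, and *Actn3* (each 0.97). For *Igf2os* they were *Sox8*, *Myom3*, *Hmcn2*, *Gmpr* and *Isl1* (0.95 to 0.93), with *Sox8* and *Isl1* transcription factors and *Myom3* a sarcomere protein. For *Peg3* they were *Gas7*, *Pik3r5* and *Lrrc25* (0.995 to 0.990).

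*Mest* was closest to *Ldoc1l*, *Mfap2*, a protein of elastic microfibrils, and *Cd81* (0.98), and *Meg3* to *Platr7*, *Mir7212* and *Slc13a4* (0.98 to 0.95). *Dlk1* was closest to *Gm15472*, *Gapdh* and *Msra* (0.91 to 0.89), and *Cdkn1c* to *Ubac1*, *Mtfp1* and *Gm38285* (0.98 to 0.95). *Grb10* was closest to *Mphosph9*, *Tbc1d31* and *Nt5dc2*, and *Plagl1* to *Fap*, *Gm45768* and *Bbs7*. Among the members themselves, *H19* with *Igf2* (0.97) and *Mest* with *Grb10* (0.93) were the most alike, and *Peg3* ran against *Mest* and *Grb10* (each −0.91).

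Per kilobase of exon, *H19* was the most abundant member in WT mice. Its mean level in RPKM, CPM divided by exon length in kilobases, was 68.6 ± 25.6 (SD, n = 3) in WT PBS and 208 ± 82.0 in WT LPS. In WT PBS it overlapped with *Mest*, the next in order at 58.4 ± 4.94, and with *Grb10*, and in WT LPS it stood above *Peg3* (64.6 ± 5.38) and *Igf2* (59.5 ± 10.6), which overlapped with each other. In *Adm*+/- mice *H19* was second, below *Mest* in PBS (53.1 ± 2.54 against 64.9 ± 9.23) and below *Peg3* in LPS (46.9 ± 3.81 against 66.4 ± 2.87). In *Adm*+/- PBS *H19* overlapped with *Grb10*, the next in order. By its mean *Igf2* was 7th in WT PBS, 3rd in WT LPS and 8th in both *Adm*+/- groups. It overlapped with *Cdkn1c*, *Plagl1* and *Dlk1* in WT PBS, with *Dlk1* in *Adm*+/- PBS, and with *Dlk1*, *Cdkn1c* and *Meg3* in *Adm*+/- LPS. *Igf2os* was last in every group, with means from 0.0825 to 0.822.

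Imprinted genes near *Peg3* and *Meg3* were looked at next. *Usp29* and *Zim1* were named for having some of the largest changes among the other imprinted genes called. The share of the *Peg3* domain that was called is therefore not read from them. *Usp29*, a paternally expressed deubiquitinase that starts 0.1 kb from *Peg3*, had 3.33 to 4.10 CPM in WT PBS and 6.57 to 10.8 CPM in WT LPS, and 2.78 to 4.13 CPM in *Adm*+/- PBS and 11.5 to 11.7 CPM in *Adm*+/- LPS. It rose in both genotypes, with log2 fold changes of 1.28 in WT mice (edgeR adjusted p = 0.00213) and 1.79 in *Adm*+/- mice (edgeR adjusted p = 0.000147). *Zim1*, the maternally expressed zinc finger gene on the other side of *Peg3*, rose by 1.26 (edgeR adjusted p = 0.000637) and 0.87 (edgeR adjusted p = 0.00267).

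In the chromosome 12 domain, *Rtl1*, a paternally expressed gene derived from a retrotransposon, and the maternally expressed non-coding RNAs *Rian* and *Mirg* rose in both genotypes. These 3 genes were named after their values were seen, so the share of the domain that was called is not read from them. The log2 fold changes in WT mice were 1.14 for *Rtl1*, 1.14 for *Rian* and 0.85 for *Mirg*, and in *Adm*+/- mice 1.07, 0.72 and 0.97. All 6 values were called, where 7.7% of all genes were called higher in WT mice and 11% in *Adm*+/- mice, and the WT call of *Mirg* was lost with only the WT libraries in the fit (edgeR adjusted p = 0.0578). *Dlk1*, in the same domain, was not called in either genotype, and *Dio3* did not pass the filter on low counts.

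**Figure D4:**
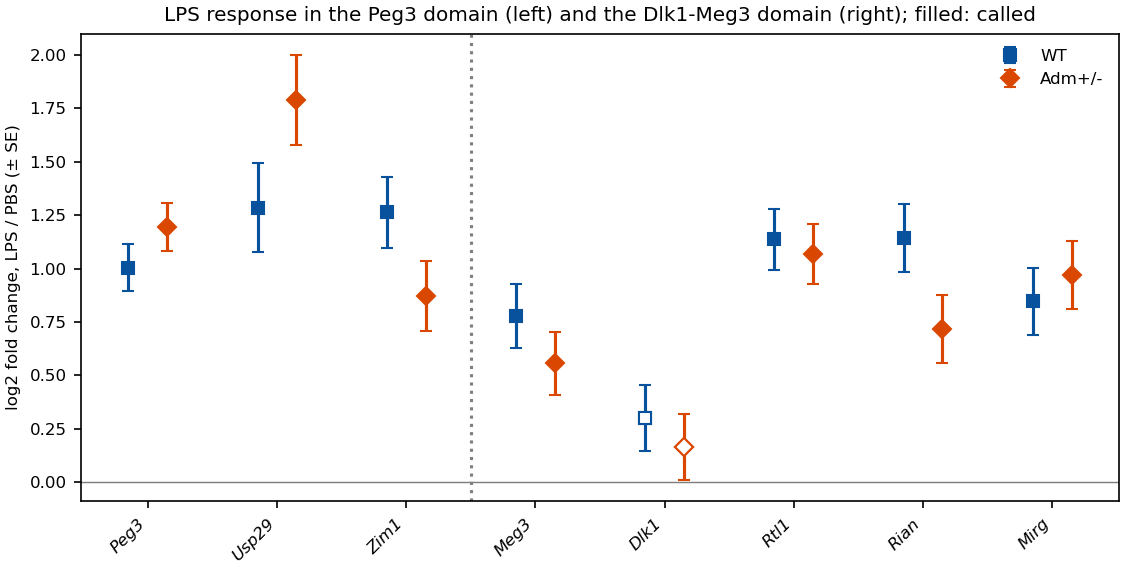
Log2 fold change between LPS and PBS (± standard error) of genes in the *Peg3* domain, left of the dotted line, and the *Dlk1*-*Meg3* domain, right of it, in WT (squares) and *Adm*+/- (diamonds) mice. Every gene shown except *Dlk1* is filled, which marks a call, in both genotypes.

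Of 47 other imprinted genes listed, 41 were tested. In WT mice 7 were called higher and 1 lower, and in *Adm*+/- mice 7 higher and 4 lower, beside the shares of all genes given above. The median log2 fold change of the 41 was 0.01 in WT mice and −0.20 in *Adm*+/- mice. The largest changes in WT mice were those of *Asb4*, a maternally expressed ubiquitin ligase subunit (1.33), *Usp29* and *Zim1*. In *Adm*+/- mice they were those of *Asb4* (2.59), *Usp29* and *Ddc*, the decarboxylase that makes dopamine and serotonin (−1.25). The genotypes differed in LPS for *Zim1* (−0.85, edgeR adjusted p = 0.0249) and *Zdbf2* (−0.81, edgeR adjusted p = 0.0286), both lower in *Adm*+/- mice, and for 0 of the 41 in PBS or in the difference between responses. Neither was called when WT LPS replicate 11 or any of the *Adm*+/- LPS replicates was left out, and the number of other imprinted genes called between genotypes in LPS was 1 without WT LPS replicate 10. The WT call of *Asb4* was lost without WT LPS replicate 9 or 10 (edgeR adjusted p up to 0.0679) and with only the WT libraries in the fit (0.0990). The WT gene called lower was *Ddc* (−0.93, edgeR adjusted p = 0.0389). Among the 12 refits with a library removed it was called in 4, those without WT LPS replicate 10, *Adm*+/- PBS replicate 6 or *Adm*+/- LPS replicate 1 or 2, and lost in the other 8 with adjusted p up to 0.160. It was also lost with only the WT libraries (0.125) and without both libraries that stood apart (0.0654).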

How the data were processed

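Bulk RNA libraries of 12 mouse lungs were made with a directional kit after ribosomal RNA depletion. The authors trimmed the reads (Trim Galore), mapped them to mm10 (HISAT2), counted them per Gencode gene (featureCounts) and deposited raw counts with no normalization or filter. The Gencode release and the strand option of the counting are not given in the sources used here. Replicates are named by the library number in the labels, and all 12 pairs within groups differed beyond sampling noise. Reads carry no molecular identifiers, so depth gives precision for counting error only.

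Genes of every biotype that passed filterByExpr (23051 of 52550) were normalized by TMM and fitted in edgeR 4.0.16 (R 4.3.3) by the quasi-likelihood F-test, with 1 coefficient per group, leaving 8 residual degrees of freedom. Calls needed an absolute log2 fold change over 0.5 together with an adjusted p (Benjamini-Hochberg, all genes tested) under 0.05. The script was tested on simulated data. Correlations used log2 CPM with a prior count of 2. Positions and exon lengths came from Gencode M21, which held 99.7% of the gene identifiers. Alternatives were RLE factors, DESeq2 1.42.0, limma-voom 3.58.1, no filter, protein-coding genes only, only the libraries compared, a muscle covariate and libraries left out.

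Named genes include the members, *Adm*, the genes most correlated with each member (5 for *H19* and *Igf2os*, 3 for the others) and the 3 largest changes among other imprinted genes called. Of the marker lists, *Acta1*, *Myog*, *Megf10* and the 3 most abundant lung epithelial genes are named, and most other list members are not. Genes such as *Rtl1*, *Rian*, *Mirg*, *Dio3*, *Nctc1*, *Ndn*, *Ppp1r9a*, *Osbpl5* and *Gm26917* are named outside these rules. Members, lists and tests were chosen with earlier results of these data known.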

Additional observations from a re-analysis of the deposited data

How the results depend on the processing

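No paired analysis was possible because the sources used here give no litter or pairing of the mice. The counts of members called were within 1.5 times the main count except as follows. With the muscle covariate 0 were called in WT mice, 2 in *Adm*+/- mice and 0 between genotypes in LPS, and among other imprinted genes 0 in WT mice and 0 between genotypes in LPS. With protein-coding genes alone 2 were called in *Adm*+/- mice, where *Meg3* is no longer tested. Without both libraries that stood apart 2 were called between genotypes in LPS and 1 for the difference between responses, and 1 was also called for that difference with DESeq2 and with no filter. Among other imprinted genes, 5 were called in WT mice with only the libraries compared and 4 between genotypes in LPS with DESeq2. Leaving out 1 library gave 2 to 5 members called in *Adm*+/- mice, 0 to 1 for the difference, and 0 to 3 other imprinted genes between genotypes in LPS.

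Some values changed sign. Under the muscle covariate the WT response became −0.18 for *Dlk1*, 0.12 for *Grb10*, 0.13 for *Plagl1*, −0.26 for *Usp29* and −0.45 for *Asb4*, and the *Adm*+/- response −0.028 for *Igf2*. The difference between responses became 0.28 for *Dlk1*, 0.39 for *Meg3* and −0.16 for *Plagl1*. The comparison of genotypes in LPS became 0.28 for *Dlk1*, 0.39 for *Meg3*, −0.41 for *Mest* and −0.18 for *Plagl1*. Without both libraries that stood apart the WT response of *Cdkn1c* was 0.19 and the genotype values in PBS were −0.0082 for *Grb10* and 0.10 for *Meg3*. *Plagl1* in PBS was 0.0038 with no filter and 0.0061 with protein-coding genes, and its difference between responses −0.0012 with no filter.

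Leaving out 1 library turned these values within the ranges given. In PBS between genotypes they were −0.63 to 0.042 for *Cdkn1c*, −0.17 to 0.078 for *Dlk1*, −0.39 to 0.014 for *Igf2os*, −0.19 to 0.084 for *Meg3* and −0.063 to 0.048 for *Plagl1*. In LPS between genotypes they were −0.20 to 0.032 for *Grb10*, −0.12 to 0.18 for *Mest*, −0.012 to 0.11 for *Peg3* and −0.087 to 0.066 for *Plagl1*. The difference between responses ranged from −0.26 to 0.0080 for *Dlk1*, −0.27 to 0.034 for *Mest* and −0.076 to 0.077 for *Plagl1*, and the WT response from −0.34 to 0.19 for *Cdkn1c* and −0.13 to 0.024 for *Plagl1*. The cause of these changes was not tested.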

Other observations

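*Nctc1*, a non-coding gene that starts 19.5 kb from *H19* on the side away from *Igf2* and was chosen after its values were seen, had 4.17, 2.28 and 1.11 CPM in WT LPS replicates 9, 10 and 11 and 0.410 to 0.488 CPM in WT PBS. It had 0.398 to 1.23 CPM in *Adm*+/- PBS and 0.625 to 0.918 CPM in *Adm*+/- LPS, so WT LPS replicate 11 lay below the highest *Adm*+/- PBS library, replicate 6. These levels rest on 8 to 161 counts a library. Its log2 fold change after LPS was 2.49 in WT mice (standard error 0.53, edgeR adjusted p = 0.00917) and 0.34 in *Adm*+/- mice (standard error 0.53, edgeR adjusted p = 0.689), and the difference between them was not called (edgeR adjusted p = 0.549). In order of level its WT LPS libraries ran as those of *Igf2* did. *Cdkn1c*, 883 kb from *H19* on the same side as *Igf2*, was not called in either genotype.

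*Ndn*, a paternally expressed growth suppressor, had 24.3 to 32.4 CPM in WT LPS against 37.6 to 51.1 CPM in WT PBS, a change that was not called (−0.54, edgeR adjusted p = 0.0784). It had 28.0 to 28.9 CPM in *Adm*+/- LPS against 34.4 to 57.9 CPM in *Adm*+/- PBS, and was among the 4 other imprinted genes called lower in *Adm*+/- mice (−0.63, edgeR adjusted p = 0.0319), with *Ddc*, *Ppp1r9a* and *Osbpl5*. *Ndn*, *Ppp1r9a* and *Osbpl5* were chosen after their values were seen.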
